A study of Drosophila melanogaster with 6 samples.

Results

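The 43 homeobox genes described here are developmental transcription factors of Drosophila melanogaster. The set holds the Hox genes of the Antennapedia and bithorax complexes, their cofactors, and other homeobox genes that specify segments, appendages, eyes and neurons. Members were found by gene symbol and FlyBase identifier among the 17489 genes counted in each library, and 41 of the 43 matched a row. The remaining pair, ap and scro, was not analysed here. Each library held RNA bound to FLAG-tagged ribosomes from male flies of the genotype Gr5a>UAS-Rpl3-3XFLAG, in which the Gr5a driver directs a tagged ribosomal protein (Rpl3) to the sweet-taste neurons of the fly mouthparts, and each was made from 300 pooled heads. From day 5 to day 12 of age, 3 groups of flies ate a control diet of 5% sucrose (CD + OSMI) and 3 ate a sugar diet of 30% sucrose (SD + OSMI). Both diets carried 10 µM OSMI-1, an inhibitor of O-GlcNAc Transferase (OGT), dissolved in 10% DMSO, so that no library in the comparison came from flies with uninhibited OGT. The comparison addressed which genes still differ between diets when this nutrient sensor is inhibited.

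Homeobox genes encode transcription factors that bind DNA through the homeodomain. In the embryo the Hox genes give each segment its identity along the body axis, and their order on the chromosome follows the order of the segments they specify. Polycomb group proteins, among them Polycomb Repressive Complex 2, keep many homeobox genes off in cells where they are not needed, while in differentiated neurons other homeobox genes stay on and maintain the identity of the cell.

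The libraries held 13324513 to 16122009 counts in genes, and normalization factors (trimmed mean of M values, TMM) lay between 0.956 and 1.04. Mitochondrial genes took 3.16% of the counts in SD + OSMI replicate 6 and 1.19% to 1.54% in the other libraries. The defining receptor of the driven cells, Gr5a, stood at 0.549 to 2.00 CPM (counts scaled to library size) with 90 counts in all 6 libraries together, and 4 of 9 sweet taste receptor genes were at 0 throughout. The 9 sweet receptors summed to 2.68 to 5.75 CPM on CD + OSMI and 3.09 to 5.19 CPM on SD + OSMI. The rhodopsin gene ninaE of photoreceptors reached 16351.5 to 23441.4 CPM and the glial gene repo 106 to 141 CPM, so RNA of other head cells was present in the ribosome fraction in every library. The neuronal gene elav lay between 371 and 470 CPM. The values below are therefore those of the fraction pulled down, and its share from Gr5a+ cells was not measured.

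Most of the homeobox genes had counts in this fraction. A gene was called silent where it had under 10 counts in at least 4 of the 6 libraries, which is also the limit for leaving it out of the diet test. By this rule 2 of 41 members (4.88%) were silent, against 31.9% of all genes in the files, and 39 were expressed. With expression on a diet defined as at least 10 counts in at least 2 of its 3 libraries, 39 members were expressed on CD + OSMI and 38 on SD + OSMI, while over all genes 11638 were expressed on CD + OSMI and 11881 on SD + OSMI. The gene that made the difference was al (aristaless), a regulator of the tips of antennae and legs.

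The silent genes were eve (even skipped), which sets up alternate segments in the embryo and the identity of certain motor neurons, and unpg (unplugged), a regulator of tracheal branches and brain regions. The counts of eve were 7, 9 and 5 on CD + OSMI and 2, 4 and 0 on SD + OSMI. The summed counts of eve were 21 on CD + OSMI (exact Poisson 95% interval 13.0 to 32.1) and 6 on SD + OSMI (2.20 to 13.1), intervals that cover counting error only. All 3 libraries of CD + OSMI lay above all 3 of SD + OSMI for eve, but the intervals overlap slightly and the gene was too low for the test. An antisense RNA, asRNA:CR43948, shares 235 bp with the exons of eve and had 0, 0, 2, 0, 10 and 2 counts in the same order of libraries, and as the strand setting of the counting is not given in the sources used here, reads of the 2 genes cannot be told apart in the shared stretch. The counts of unpg were 11, 0 and 3 on CD + OSMI and 3, 2 and 9 on SD + OSMI, 14 on each diet. Neither diet was higher for unpg, and on each diet a single library, CD + OSMI replicate 1 and SD + OSMI replicate 6, held most of the counts.

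Just inside the limit stood al, with 12, 8 and 11 counts on CD + OSMI and 3, 10 and 3 on SD + OSMI. Its summed counts were 31 (exact Poisson 95% interval 21.1 to 44.0) and 16 (9.15 to 26.0), and the log2 fold change of SD + OSMI over CD + OSMI was -0.93 ± 0.65 (SE; edgeR adjusted p = 0.449). One library of SD + OSMI fell within the range of CD + OSMI, and the single-diet expression of al rests on a few counts. The next members above it were far from the limit. The POU gene pdm2, which acts in early neuroblasts, had 73, 57 and 69 counts on CD + OSMI and 68, 44 and 46 on SD + OSMI. The motor neuron gene exex, the fly counterpart of HB9, had 117, 75 and 73 counts on CD + OSMI and 79, 101 and 84 on SD + OSMI. Neither gene separated the diets, and every library of both was well above 10 counts.

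Levels of different genes were compared as CPM per kilobase of merged exons, a scale on which genes with long or many alternative exons are understated. The members spanned 0.187 to 59.9 CPM per kilobase (means over 6 libraries). Of the 41, 8 stood at 20 or more, 9 from 5 to 20, 20 from 1 to 5 and 4 under 1. The median of the 41 was 3.41, with the silent members included. Over the 11711 expressed genes with a known length, a set without silent genes, the median was 7.84. The 3 highest members made up 31.4% and the 8 highest 65.3% of the level summed over the set.

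**Figure D1:**
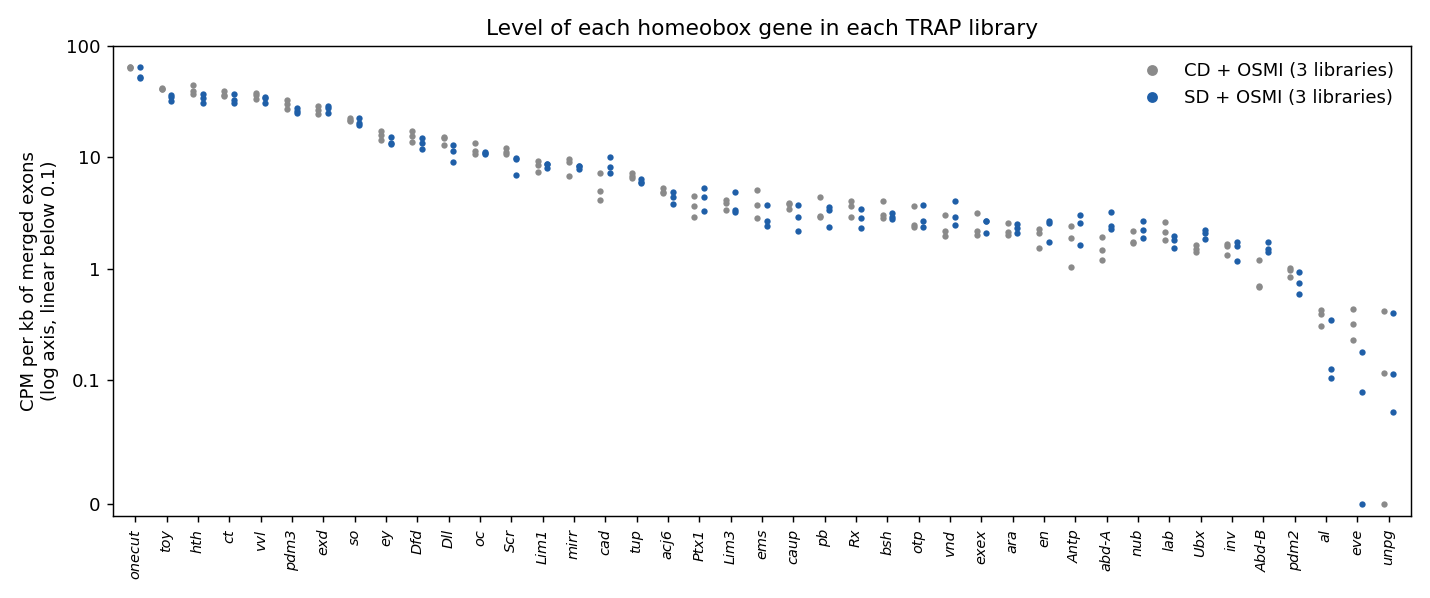
Level of each of the 41 members in CPM per kilobase of merged exons on a log axis, 1 point per library, coloured by diet. The series runs from onecut, with a mean of 59.9, down to unpg, with a mean of 0.187, and for most genes the points of both diets mix.

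At the top of the order was onecut, a CUT-class regulator found in neurons, with 433, 425 and 435 CPM on CD + OSMI and 432, 345 and 353 CPM on SD + OSMI. Its range per kilobase, 51.2 to 64.5, did not overlap that of any other member. Next came toy (38.0 CPM per kilobase) and hth (37.2), whose ranges overlapped. The gene hth (homothorax) encodes the TALE-class cofactor that carries exd into the nucleus, and stood at 439, 526 and 471 CPM on CD + OSMI and 442, 363 and 402 CPM on SD + OSMI. The other CUT gene, ct (cut), which selects the fate of external sensory organs such as taste bristles, was at 455, 490 and 443 CPM on CD + OSMI and 465, 408 and 385 CPM on SD + OSMI. The exons of hth share 207 bp with an antisense RNA, asRNA:CR44018, which had 14 to 42 counts per library. For onecut, hth and ct alike, the SD + OSMI replicate 4 lay among the control libraries and replicates 5 and 6 below them.

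The POU gene vvl (ventral veins lacking), a regulator of trachea and of neurons, had 160, 181 and 174 CPM on CD + OSMI and 163, 148 and 167 CPM on SD + OSMI. Its relative pdm3, which acts in olfactory receptor neurons, had 146, 174 and 163 CPM on CD + OSMI and 150, 134 and 142 CPM on SD + OSMI. Both overlapped between diets, and per kilobase vvl (34.6) and pdm3 (28.2) were neighbours in the order with overlapping ranges. The Hox cofactor exd (extradenticle) was even across the 6 libraries, with 95.1, 80.6 and 87.9 CPM on CD + OSMI and 92.2, 82.3 and 94.98 CPM on SD + OSMI. The retinal determination gene so (sine oculis) had 62.6, 59.8 and 59.6 CPM on CD + OSMI and 62.6, 54.5 and 56.1 CPM on SD + OSMI. Among the 8 highest, onecut, exd (26.9 CPM per kilobase) and so (21.3) were set apart from the member below them in every library, and the others were not.

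Related members differed in level. Of the paired Pax6 genes, toy (38.0 CPM per kilobase, range 32.1 to 41.9) exceeded ey (14.8, range 13.1 to 17.2) without overlap. In the Iroquois complex, whose genes pattern the dorsal eye and the body wall, mirr (8.31, range 6.79 to 9.68) lay above caup (3.33) and ara (2.27). The POU neighbours nub (2.07, range 1.69 to 2.69) and pdm2 (0.852, range 0.596 to 1.02) were also apart, whereas the posterior compartment genes en (2.15) and inv (1.51) overlapped. Among LIM-homeodomain genes, which take part in motor neuron identity, Lim1 (8.47) and tup (6.45) exceeded Lim3 (3.80). The head gene oc (ocelliless) was the highest PRD-like member at 11.4 CPM per kilobase, and acj6 (4.71), a POU regulator of odorant receptor choice, stood below its class mates vvl and pdm3. Genes of embryonic neural patterning, vnd (2.77), ems (3.41), bsh (3.13), otp (2.89) and Rx (3.19), formed a group with overlapping ranges, in which otp shares 321 bp of exon with the antisense RNA asRNA:CR43160 (18 to 64 counts per library) and is uncertain for that reason.

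Few of these genes passed the test for a difference between the diets. In a fit across the 11915 tested genes (edgeR quasi-likelihood test, adjusted p under 0.1), 5 of the 39 tested members passed (12.8%), beside 9.09% of all tested genes. Of these, 3 rose on SD + OSMI (7.69%, beside 6.91% of all tested genes), namely Abd-B, abd-A and cad, and 2 fell (5.13%, beside 2.18%), namely Dll and toy. The share called among the members was thus close to the background. The median log2 fold change of the tested members was -0.12 and that of all tested genes -0.003, and 24 of 39 members (61.5%) had a value below 0, as had 50.4% of all tested genes. Replicates are separate pools of flies, so p-values measure the spread between these pools.

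**Figure D2:**
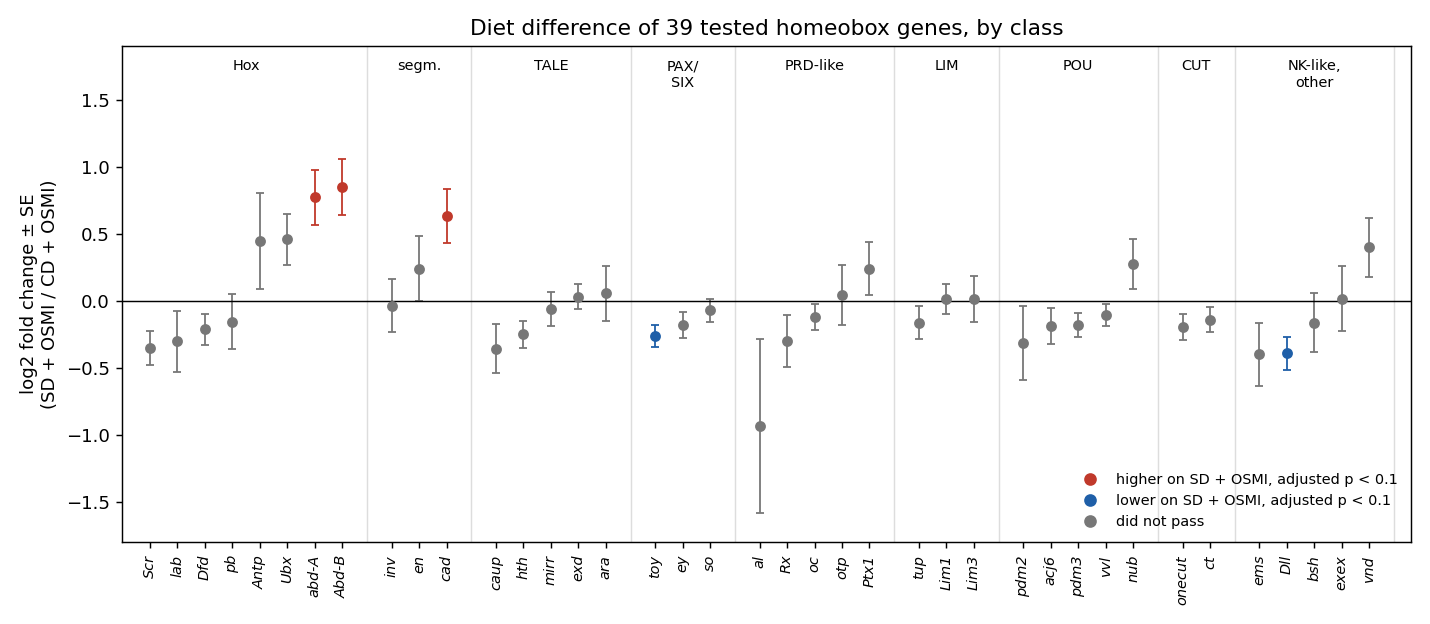
Log2 fold change of SD + OSMI over CD + OSMI with its standard error for the 39 tested members, grouped by class of homeodomain, with genes at an adjusted p under 0.1 (edgeR) marked. The called genes are Abd-B, abd-A and cad, which rose, and Dll and toy, which fell.

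The 3 genes that rose all specify posterior structures. Abd-B (FBgn0000015; BDGP6 3R:16927212-16972236), the most posterior Hox gene, which shapes the last abdominal segments and the genitalia, had 14.3, 8.16 and 8.18 CPM on CD + OSMI and 16.8, 20.4 and 17.9 CPM on SD + OSMI. Every library of SD + OSMI was above every control library. Abd-B rose 1.8-fold, from 10.2 ± 3.52 to 18.4 ± 1.83 CPM (SD, n = 3), a log2 fold change of 0.85 ± 0.21 (SE; edgeR adjusted p = 0.0454). Its neighbour abd-A (FBgn0000014; 3R:16807214-16830049), which specifies the middle abdomen, had 10.7, 6.59 and 8.11 CPM on CD + OSMI and 12.4, 17.7 and 13.3 CPM on SD + OSMI. For abd-A too the diets did not overlap, and the gene rose 1.71-fold, from 8.45 ± 2.05 to 14.4 ± 2.83 CPM (SD, n = 3), a log2 fold change of 0.77 ± 0.21 (SE; edgeR adjusted p = 0.0527).

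The third, cad (caudal; FBgn0000251; 2L:20770731-20783135), establishes the posterior end of the embryo and acts in the hindgut and in the adult gut. It is also among the transcription factors that the study named for taste plasticity. Its values were 18.7, 10.6 and 12.8 CPM on CD + OSMI and 18.6, 25.9 and 21.0 CPM on SD + OSMI. Control replicate 1 exceeded the lowest SD + OSMI library, so the diets overlapped. The level of cad rose 1.55-fold, from 14.0 ± 4.14 to 21.8 ± 3.75 CPM (SD, n = 3), a log2 fold change of 0.63 ± 0.20 (SE; edgeR adjusted p = 0.096). Across the 9 alternatives of processing this call was the least stable of the 5. It was lost, for example, with DESeq2-type size factors (edgeR adjusted p = 0.106) and with a minimum of 50 counts (0.126). With 1 library left out, cad, Abd-B, abd-A and Dll were each called in 2 of 6 fits and toy in 1.

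**Figure D3:**
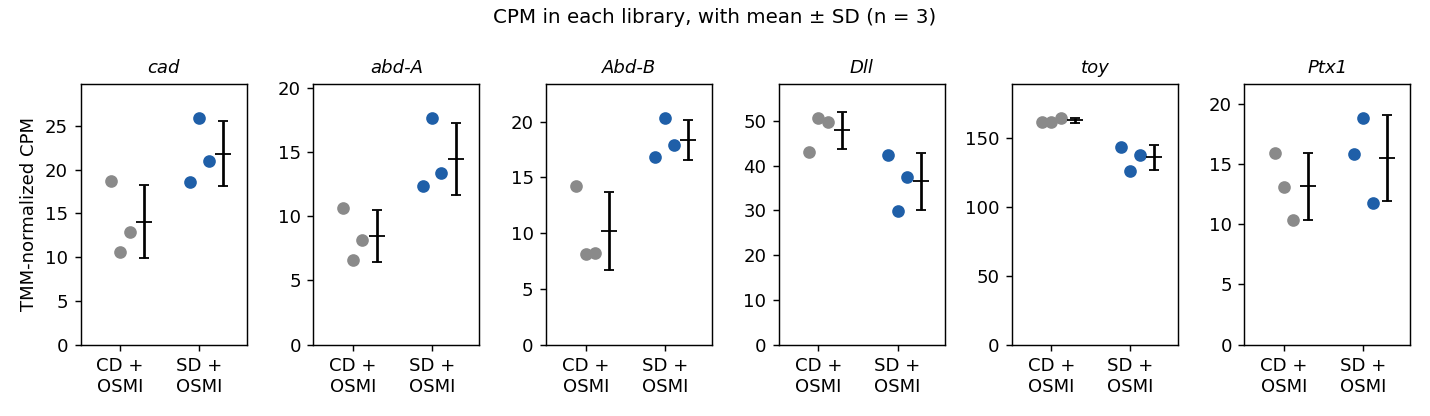
CPM of the 5 called members and of Ptx1 in each library, with the mean of each diet as a bar. Abd-B, abd-A, Dll and toy show no overlap between CD + OSMI and SD + OSMI, and cad and Ptx1 do.

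Markers of the male reproductive tract had counts in every library, although the libraries were made from pooled heads, and they were also higher on SD + OSMI. The source of this RNA was not tested. Summed over 21 genes that mark the accessory gland or the ejaculatory duct or bulb, of which none was at 0 in every library, the level was 286, 239 and 238 CPM on CD + OSMI and 324, 548 and 473 CPM on SD + OSMI, and 14 of the 20 tested genes rose while 1 fell. Summed over 25 testis and sperm genes, none of them at 0 throughout, it was 1341, 879 and 1263 CPM on CD + OSMI and 1596, 2619 and 2272 CPM on SD + OSMI, and 11 of 22 rose. The sum over 13 gut genes, again none at 0 throughout, was 353, 233 and 225 CPM on CD + OSMI and 246, 403 and 342 CPM on SD + OSMI, with 1 of 11 tested genes higher and 1 lower. The gut sums overlapped between diets, with SD + OSMI replicate 5 above every control library, while the median log2 fold change of the gut list was -0.42. As a list the gut genes thus showed no consistent direction. In the sums of all 3 lists, as for Abd-B, abd-A and cad, control replicate 1 was the highest library of its diet and SD + OSMI replicate 5 the highest of all. The uncalled members Ptx1, vnd and inv had this pattern too, so it was not particular to the called genes. The part of these tissues in the change of the 3 genes was not tested. In bulk samples of this kind, a change in the number of cells of a type and a change in RNA per cell cannot be told apart.

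**Figure D4:**
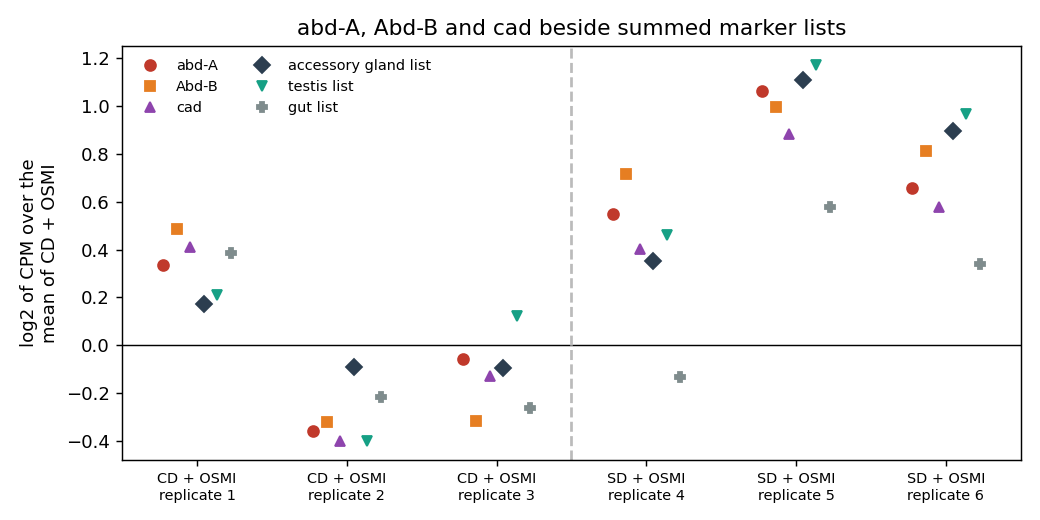
Log2 of CPM over the mean of the CD + OSMI libraries, in each library, for Abd-B, abd-A and cad and for the summed accessory gland, testis and gut marker lists. SD + OSMI replicate 5 is the highest library for each gene and each list.

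The 8 Hox genes did not move as a block. In chromosome order, the first 4 genes of the Antennapedia complex (lab, pb, Dfd and Scr), which act in the head and the first thoracic segment, had log2 fold changes below 0. The last gene of that complex, Antp, and the 3 genes of the bithorax complex (Ubx, abd-A and Abd-B), which act in the thorax and abdomen, had values above 0. Only abd-A and Abd-B passed the test, so this split is a description of 8 values. The value of pb turned to 0.063 without control replicate 2 and to 0.015 without SD + OSMI replicate 5.

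**Figure D5:**
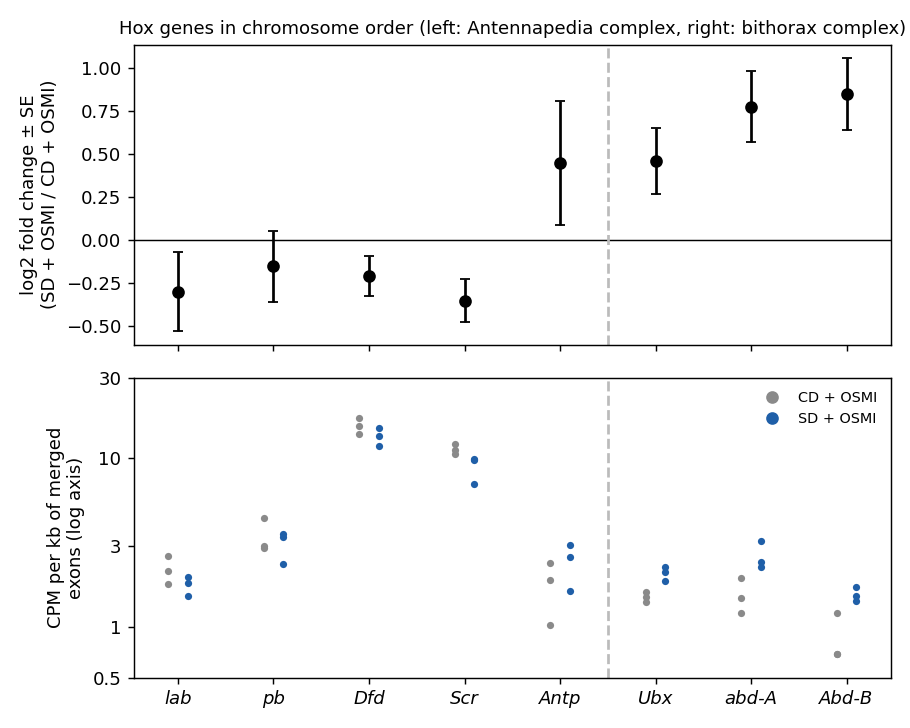
Log2 fold change of SD + OSMI over CD + OSMI with its standard error, and level in CPM per kilobase, of the 8 Hox genes in their order along chromosome arm 3R. Values run from -0.35 (Scr) to 0.85 (Abd-B), and Dfd has the highest level, 14.5.

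By level, Dfd and Scr led the Hox genes. Dfd (Deformed), which specifies the maxillary segment, stood at 14.5 CPM per kilobase and Scr (Sex combs reduced), which specifies the labial segment that forms the proboscis, at 10.1, with ranges that touched (11.8 to 17.4 and 6.99 to 12.2). Both lay above pb (proboscipedia, 3.28), which also specifies the proboscis, and above the other 5 (1.21 to 2.10), among them lab (1.98), which acts in the most anterior head. Dfd had 37.8, 47.7 and 42.5 CPM on CD + OSMI and 41.2, 36.9 and 32.2 CPM on SD + OSMI, with a log2 fold change of -0.21 ± 0.12 (SE; edgeR adjusted p = 0.316). Scr had 51.1, 48.6 and 55.7 CPM on CD + OSMI and 44.7, 32.0 and 45.1 CPM on SD + OSMI. All 3 SD + OSMI libraries of Scr were below the controls, yet its log2 fold change of -0.35 ± 0.13 (SE) did not pass (edgeR adjusted p = 0.125), while DESeq2 called it (adjusted p = 0.0971). The range of pb was 8.77 to 16.5 CPM and that of lab 4.63 to 8.03 CPM, both with overlapping diets and log2 fold changes of -0.15 ± 0.21 and -0.30 ± 0.23 (SE).

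The thoracic Hox genes were variable or low. Antp (Antennapedia) had 8.20, 19.1 and 15.1 CPM on CD + OSMI and 13.0, 20.6 and 24.2 CPM on SD + OSMI, so that the spread within a diet exceeded the difference between diets (log2 fold change 0.44 ± 0.36, SE; edgeR adjusted p = 0.542). Its exons share 3978 bp with another gene on the same strand, CG46458, which is not analysed here, so its level is uncertain. Ubx (Ultrabithorax), which specifies the third thoracic segment, had 6.005, 6.93 and 6.42 CPM on CD + OSMI and 7.98, 9.02 and 9.63 CPM on SD + OSMI. The diets did not overlap for Ubx, but its log2 fold change of 0.46 ± 0.19 (SE) did not pass the test (edgeR adjusted p = 0.178). Other genes within the 2 complexes were mostly at or near 0. In the Antennapedia complex, 30 of 39 other genes had under 10 counts in every library and 5 were tested, with log2 fold changes of 0.27 to 1.09. In the bithorax complex, 8 of 11 were under 10 counts in every library and 3 were tested, with 0.31 to 0.86, and edgeR called none of these 8 tested genes.

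The 2 genes that fell act in the head and its appendages. Dll (Distal-less, FBgn0000157; arm 2R), which specifies the distal parts of limbs, antennae and mouthparts, had 43.1, 50.7 and 49.8 CPM on CD + OSMI and 42.3, 29.8 and 37.4 CPM on SD + OSMI. All libraries of SD + OSMI lay below the controls, by a narrow margin for replicate 4. Dll went from 47.9 ± 4.18 to 36.5 ± 6.33 CPM (SD, n = 3), 1.31-fold lower, a log2 fold change of -0.39 ± 0.12 (SE; edgeR adjusted p = 0.0882). The Pax6 gene toy (twin of eyeless, FBgn0019650; 4:989725-1007922), which starts the eye programme, had 161, 162 and 164 CPM on CD + OSMI and 143, 126 and 138 CPM on SD + OSMI. The control libraries of toy were nearly equal and all SD + OSMI libraries were below them, at 162 ± 1.74 against 136 ± 8.82 CPM (SD, n = 3), 1.20-fold lower, a log2 fold change of -0.26 ± 0.08 (SE; edgeR adjusted p = 0.0802).

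The other Pax6 gene, ey, had a value of -0.18 ± 0.10 (SE; edgeR adjusted p = 0.316). General neuronal markers, 9 genes with none at 0, summed to 13873 to 15540 CPM on CD + OSMI and 12008 to 14757 CPM on SD + OSMI, and none was called by edgeR (1 lower at an unadjusted p under 0.05, 1 called by DESeq2 and 0 by limma-voom). Photoreceptor markers, 12 genes with none at 0, summed to 28339 to 35790 and 25988 to 31024 CPM, also overlapping between diets. In both lists SD + OSMI replicate 5 was the lowest library, as it was for Dll and toy, while the 8 fat body markers, of which 6 fell and none was at 0, summed to 9311 to 11526 CPM on CD + OSMI and 6392.7 to 8032.1 CPM on SD + OSMI, also lowest in replicate 5. The 8 glial markers, none at 0, summed to 1713.5 to 1798.5 CPM on CD + OSMI and 1520.0 to 1637.1 CPM on SD + OSMI, without overlap and lowest in replicate 5, although edgeR called none of them (1 lower at an unadjusted p under 0.05, 1 called by DESeq2 and 0 by limma-voom). Replicate 5 was also the lowest library for many uncalled members, among them onecut, hth, vvl, pdm3, ey, so and Scr. The part of these cells in the fall of Dll and toy was not tested.

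Without regard to the test, 7 of the 39 members (17.9%) had diets that did not overlap, below the 24.8% of all tested genes. These were Ubx, abd-A and Abd-B on the higher side (7.69%, beside 14.5%) and Scr, toy, tup and Dll on the lower side (10.3%, beside 10.2%). The LIM gene tup (tailup) differed little, with 21.4, 23.7 and 22.6 CPM on CD + OSMI and 19.5, 19.7 and 21.3 CPM on SD + OSMI. Non-overlap was thus no more frequent among the members than among all tested genes.

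Each of the 5 calls needed particular libraries. Without control replicate 1, 4 members were called, with log2 fold changes of 1.17 (Abd-B), 0.98 (abd-A), 0.90 (cad) and -0.46 (Dll), and without SD + OSMI replicate 4, 9 were called, 4 higher and 5 lower. With edgeR, 0 members were called without control replicate 2 (7 at an unadjusted p under 0.05), without control replicate 3 (5), without SD + OSMI replicate 5 (5) or without SD + OSMI replicate 6 (8). The calls over all tested genes also fell in those fits, from 1083 to between 76 and 214. They numbered 1107 without control replicate 1 and rose to 2434 without SD + OSMI replicate 4. With all 6 libraries, 8 of 39 members (20.5%) had an unadjusted edgeR p under 0.05, beside 21.4% of all tested genes. The share of all tested genes at that p with a library left out is not given here. The direction of the 5 genes held in every fit, with log2 fold changes of 0.71 to 1.17 for Abd-B, 0.60 to 0.98 for abd-A, 0.47 to 0.90 for cad, -0.50 to -0.26 for Dll and -0.29 to -0.21 for toy.

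Since a missed threshold does not show that levels are alike, members were also tested for practical equivalence, that is for a change smaller than 1.5-fold in either direction. By this test 20 of the 39 members (51.3%) were equivalent between the diets at q under 0.05, beside 47.1% of all tested genes. The 8 members of highest level were all among the equivalent ones. Their edgeR SEs were small, from 0.08 (toy) to 0.10 (hth), beside a median of 0.19 over the tested members. A small SE makes equivalence easier to show, so this does not set high-level genes apart as more stable. Both CUT genes (onecut and ct), all 3 genes of the retinal group (ey, toy and so), all 3 LIM genes (Lim1, Lim3 and tup), 4 of 5 TALE genes (exd, hth, ara and mirr) and 3 of 5 POU genes (vvl, pdm3 and acj6) passed, as did Dfd, inv, otp, oc and exex. The fall of toy was thus both past the diet test and within the 1.5-fold limit. The equivalent gene hth had a log2 fold change of -0.25 ± 0.10 (SE; edgeR adjusted p = 0.159), and DESeq2 called it lower (adjusted p = 0.0954). Without SD + OSMI replicate 4, edgeR called hth (adjusted p = 0.0347) and onecut (adjusted p = 0.0196) lower.

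Neither a change nor equivalence could be shown for the remaining 15 members. Among them was Ptx1, the fly Pitx gene, which is active in the gut and nervous system and is, like cad, among the factors that the study named for taste. Ptx1 had 15.9, 13.1 and 10.4 CPM on CD + OSMI and 15.8, 18.9 and 11.7 CPM on SD + OSMI, with diets that overlapped over most of their range. The log2 fold change was 0.24 ± 0.20 (SE; edgeR adjusted p = 0.532). Among the other uncalled members values ran from -0.93 (al) to 0.46 (Ubx), with vnd at 0.40 ± 0.22, nub at 0.28 ± 0.19 and en at 0.24 ± 0.24 above 0, and ems at -0.40 ± 0.24, caup at -0.36 ± 0.18, pdm2 at -0.32 ± 0.27 and Rx at -0.30 ± 0.20 below it (SE). Of the classes, the LIM genes had a median of 0.01, the TALE genes -0.06, the PRD-like genes -0.12, the NK-like and other genes of the ANTP class -0.16, the CUT genes -0.17, and the POU genes and the retinal group -0.18 each. The Hox genes had a median of 0.14 and the segmentation and caudal genes one of 0.24.

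Homeobox genes beyond the set were also compared between the diets. Of 57 further homeobox genes with a row, 14 were silent (beside 31.9% of all genes in the files) and 43 were tested. EdgeR called 2 higher and 0 lower, beside 6.91% and 2.18% of all tested genes. By unadjusted p under 0.05, 6 were higher and 5 lower, beside 21.4% of all tested genes in either direction. DESeq2 and limma-voom called 1 gene each, and the median log2 fold change was -0.07. Practical equivalence was shown for 11 of the 43, a smaller share than the 47.1% of all tested genes. Of the 11915 tested genes, DESeq2 called 1418 and limma-voom 795. The measures thus pointed different ways: calls were fewer than over all tested genes, but practical equivalence was also rarer. Whether the further genes were steadier than the background was not settled by these counts. The higher pair was toe (twin of eyegone, a Pax gene of the eye programme), at 24.9, 27.4 and 22.1 CPM on CD + OSMI and 34.9, 36.3 and 37.9 CPM on SD + OSMI, and H2.0, a gene of the visceral muscle. The diets of toe did not overlap, and its log2 fold change was 0.55 ± 0.11 (SE; edgeR adjusted p = 0.0177). H2.0 had 4, 2 and 4 counts on CD + OSMI and 14, 16 and 10 on SD + OSMI, so that it entered the test through the libraries of SD + OSMI in which it was high (log2 fold change 1.97 ± 0.63, SE; edgeR adjusted p = 0.0881). Next by p were Dr, at 0.35 (adjusted p = 0.104), and prd, at 0.76 (adjusted p = 0.145), and neither passed.

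The RNA of regulators that keep homeobox genes off or on showed no called difference between the diets in this fraction. Over all tested genes, edgeR called 9.09%, 21.4% had an unadjusted edgeR p under 0.05 and 47.1% were practically equivalent. A small SE makes equivalence easier to show. Of 19 Polycomb group genes tested, 0 were called by edgeR, by DESeq2 or by limma-voom, 1 had an unadjusted edgeR p under 0.05 and 17 were practically equivalent, with a median log2 fold change of -0.07. That gene was pho (pleiohomeotic), a DNA-binding recruiter of Polycomb complexes, at 75.0, 69.9 and 72.8 CPM on CD + OSMI and 67.3, 54.2 and 60.7 CPM on SD + OSMI (log2 fold change -0.26 ± 0.09, SE; edgeR adjusted p = 0.127). Its diets did not overlap. Of 14 Trithorax group genes, which keep target genes on, 0 were called by any of the tools and 0 had an unadjusted edgeR p under 0.05, 13 were practically equivalent, and the median was -0.09.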

How the data were processed

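Ribosome-bound RNA of 3 CD + OSMI and 3 SD + OSMI libraries was sequenced by the authors, and the submitters' processing notes name STAR, SAMtools 1.4, HTSeq and DESeq2 1.18.0 with the build BDGP6. The deposited values are raw counts of reads per gene, without normalization. Strand setting and annotation release are not given in the sources used here. Gene names, coordinates and merged exon lengths came from Ensembl release 115 (BDGP6). Of the 17489 genes, 17215 had an annotation, and 2 members without a matched row were left out. The 11915 genes that reached 10 counts in 3 or more libraries entered the test with edgeR 4.0.16 in R 4.3.3 (TMM factors, robust quasi-likelihood F test, diet as the only term), with Benjamini-Hochberg adjustment over all of them and a threshold of 0.1. The SE is the log2 fold change divided by the square root of F. Practical equivalence used a normal test on DESeq2 1.42.0 estimates (1.5-fold, q under 0.05). Alternatives were DESeq2, limma-voom (limma 3.58.1), other size factors, filters and thresholds, and leaving out each library. The fits were tested on simulated data. Given in full were cad, Ptx1, called members, the Hox genes, the 8 highest expressed members and those nearest the limit of silence, and other members by class. From further lists, up to 4 genes of smallest p could be named. Members and lists were chosen with earlier results of these data known.

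Counts of the 6 libraries differed beyond sampling noise within each diet (chi-square per degree of freedom 10.6 to 33.1), so each was used as a separate replicate. Total depth was 13324513 to 16122009 counts per library, at which the common biological coefficient of variation was 0.15. Intervals on counts cover counting error only.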

Additional observations from a re-analysis of the deposited data

How the results depend on the processing

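With 3 higher and 2 lower members (5 called), an adjusted p under 0.05 left 1 higher, 0 lower and 1 called, DESeq2 gave 4 lower and limma-voom 1 lower. Leaving out 1 library gave 0 to 4 higher, 0 to 5 lower and 0 to 9 called. Over all tested genes (823 higher, 260 lower, 1083 called) an adjusted p under 0.05 gave 310, 90 and 400, and leaving out 1 library gave 42 to 1634 higher, 34 to 800 lower and 76 to 2434 called. Silent members numbered 2, 1 with a limit of 5 counts, 3 with a limit of 20 or with counts scaled to the smallest library, and 2 to 3 when 1 library was left out. Equivalent members numbered 20, against 35 at a 2-fold limit and 13 to 20 when 1 library was left out. The values of 10 members near 0 changed sign when 1 library was left out: pb (-0.27 to 0.063), exd (-0.027 to 0.093) and exex (-0.11 to 0.25), and also ara, bsh, inv, Lim1, Lim3, mirr and otp, whose values stayed between -0.26 (bsh) and 0.27 (otp). Of the 9 other alternatives, Abd-B was called in 9, abd-A and toy in 8, Dll in 7 and cad in 4. The cause of these changes was not tested. Leaving out the mitochondrial genes, an alternative added after seeing the data because of SD + OSMI replicate 6, gave an adjusted p of 0.112 for cad. The median log2 fold change of all tested genes stayed between -0.02 and 0.007 under these settings. No paired analysis was possible because the diets share no replicate number. Depth limits eve, unpg and al, whose counts were at most 12 per library.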
